A study of Mus musculus with 8 samples.

Results

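The peaks described here are regions enriched for N6-methyladenosine (m6A) that the study placed in coding sequence (class CDS) and that lie in 1 unbroken exon block. They were taken from the authors' deposited peak tables as every row with that class and a block count of 1. Of 7502 listed peaks in wild-type PA cells, 3506 met the rule (46.7%, 95% Wilson interval 45.6% to 47.9%). In the Alkbh5 knockout PA list 3938 of 9931 did (39.7%), in the wild-type RO list 3901 of 9418 (41.4%), and in the knockout RO list 3724 of 8846 (42.1%). They made up most of the peaks in coding sequence, 82.8% in wild-type PA, 71.9% in knockout PA, 83.2% in wild-type RO and 78.8% in knockout RO. The remaining coding peaks had several blocks, as a peak has when it runs across a splice junction.

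The libraries came from spermatogenic cells of testes of C57BL/6 mice aged 12 weeks, either wild type (WT) or Alkbh5-/- (knockout, KO). In the labels the cell fractions are called PA and RO; pachytene spermatocytes and round spermatids are named in the title of the series. Each genotype and cell fraction had 1 input and 1 immunoprecipitated (IP) sample, 8 samples in all. Total RNA was broken with zinc chloride into pieces of 100 to 200 nt and pulled down with a polyclonal antibody against m6A. The labels do not say how many mice were pooled, how the knockout was made or how the cells were separated. There were no replicates, so every difference below compares these libraries, no test between conditions was run, and the intervals cover counting error only.

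m6A is a methyl mark on adenosines inside messenger RNA, written by a complex built around METTL3 and METTL14 mainly at adenosines within GGAC and related letters. ALKBH5 is a demethylase that removes the mark, is abundant in testis and is needed for normal sperm production. The mark is densest around stop codons and in 3′ untranslated regions, and within coding sequence it gathers in long internal exons. Reader proteins of the YTH family bind it and act on the stability and translation of the transcript.

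Sequence could be read for few of the peaks, because only windows around RefSeq gene starts (GRCm38.p6) were at hand, and the peak positions are in mm10, the matching build. The following 8 stretches are examples chosen after their letters had been seen, so they do not show how often GGAC occurs. All belong to peaks of the coding class and have a reading frame free of stop codons, as do most peaks with sequence. They come from peaks shared by several lists (Irs2, Dnaaf2, Cic, Pi4kb, Zbtb8a) and from peaks of 1 list (Tbc1d1, Muc16, Rora). Each is written 5′ to 3′ on the strand of the peak, and capitals mark GGAC. Irs2 encodes an adaptor of the insulin receptor, Dnaaf2 a factor that assembles axonemal dynein, Cic a transcriptional repressor, Pi4kb a phosphatidylinositol kinase of the Golgi, and Zbtb8a a BTB zinc finger protein. Tbc1d1 encodes a GTPase-activating protein, Muc16 a very large mucin and Rora a nuclear receptor.
Irs2, whole knockout RO peak, minus strand, chr8:11007649-11007829: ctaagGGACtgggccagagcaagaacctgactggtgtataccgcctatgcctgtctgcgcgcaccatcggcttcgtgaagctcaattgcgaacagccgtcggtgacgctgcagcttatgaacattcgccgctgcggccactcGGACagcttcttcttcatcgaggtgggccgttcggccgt
Dnaaf2, part of the wild-type PA peak, minus strand, chr12:69196961-69197079: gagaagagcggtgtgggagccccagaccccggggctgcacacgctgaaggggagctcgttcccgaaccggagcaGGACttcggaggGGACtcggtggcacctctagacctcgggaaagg
Zbtb8a, whole knockout RO peak, minus strand, chr4:129354282-129354491: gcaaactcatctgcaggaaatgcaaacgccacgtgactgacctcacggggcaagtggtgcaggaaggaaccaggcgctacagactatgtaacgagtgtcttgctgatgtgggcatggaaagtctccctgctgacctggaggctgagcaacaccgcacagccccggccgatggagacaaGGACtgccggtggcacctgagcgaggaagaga
Cic, part of the wild-type PA peak, plus strand, chr7:25270953-25271087: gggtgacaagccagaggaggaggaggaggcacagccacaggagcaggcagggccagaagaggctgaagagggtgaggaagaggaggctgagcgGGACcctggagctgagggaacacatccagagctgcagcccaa
Tbc1d1, whole knockout PA peak, plus strand, chr5:64256930-64257050: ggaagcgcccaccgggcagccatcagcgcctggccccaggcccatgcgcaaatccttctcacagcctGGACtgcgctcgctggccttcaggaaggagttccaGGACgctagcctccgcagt
Muc16, part of a wild-type RO peak, minus strand, chr9:18645163-18645346: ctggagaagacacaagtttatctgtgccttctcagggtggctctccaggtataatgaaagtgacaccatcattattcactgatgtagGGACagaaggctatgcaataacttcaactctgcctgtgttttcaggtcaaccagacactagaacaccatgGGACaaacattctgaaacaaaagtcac
Pi4kb, part of the wild-type PA peak, plus strand, chr3:94984085-94984237: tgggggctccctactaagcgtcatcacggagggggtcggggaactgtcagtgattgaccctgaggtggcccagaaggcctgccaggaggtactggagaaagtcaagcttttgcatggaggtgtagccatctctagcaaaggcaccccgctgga
Rora, whole wild-type PA peak, plus strand, chr9:69364256-69364406: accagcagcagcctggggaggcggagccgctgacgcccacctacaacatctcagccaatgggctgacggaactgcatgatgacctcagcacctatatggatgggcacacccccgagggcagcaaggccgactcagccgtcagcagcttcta

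The Irs2 stretch holds GGAC at 2 places, of which 1 reads GGACT, and each of the 4 lists has a peak that overlaps it. Dnaaf2 and Tbc1d1 also hold 2 GGAC each, and in Dnaaf2 both read GGACT. The Dnaaf2 peaks are listed a second time under the overlapping gene AC099934.3. Cic holds 1 GGAC, and the Zbtb8a stretch holds 1 that reads GGACT. Pi4kb, whose peak appears in all 4 lists, and Rora hold none in the stretch shown, although the Pi4kb stretch is only a part of a peak of 628 bp. Over all 69 peak entries with at least 60 bases of sequence (42 genes, chromosome 18 left out), GGACT was found on the strand of the peak in 24.6% (16.0% to 36.0%) and on the opposite strand in 7.25%. The same positions of all 32851 windows held it in 13.8% and 13.4%. GGAC, which includes every GGACT, was on the strand of the peak in 60.9% and on the opposite strand in 29%, against 40.5% and 39.7% over all windows. Many of the 69 entries are the same place in several lists, and the interval wrongly treats them as independent. The entries with GGACT count Irs2, Zbtb8a and Dnaaf2 repeatedly, the last also as AC099934.3. The distance from the share over all windows thus rests in part on such repeats, and no share by place was calculated. These shares describe a small and uneven sample near gene starts, and a match is a run of letters and no measured site.

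Before the peaks were compared, the input libraries were checked for the labelled cells. Their totals ran from 9921365 to 13147239 counts over 53465 genes. Gene symbols came from the peak lists, which gave 4 of 10 pachytene spermatocyte and 7 of 12 round spermatid markers a value. The pachytene markers summed to 2644 CPM (counts adjusted for the total of each library) in wild-type PA and 2345 in wild-type RO, and to 1416 in knockout PA and 1608 in knockout RO. The round spermatid markers summed to 248 in wild-type PA, 633 in knockout PA, 502 in wild-type RO and 1081 in knockout RO. By these sums knockout PA was above wild-type RO in spermatid markers and below it in pachytene markers, against the cell labels. Single markers differed: Acrv1 (51.3 CPM in knockout PA, 136 in wild-type RO) and Tssk1 (20.7 and 27.5) went the other way. Of the pachytene markers Sycp2 carried most of the difference (826 and 1518), and Sycp1 was nearly level (339 and 364). Of the markers of other testis cells, 4 of 7 had a value for spermatogonia, 4 of 7 for Sertoli and 2 of 5 for Leydig cells. For peritubular, endothelial and blood cells 3 of 6 did. None of these was at 0. A marker had a value only if its gene had a peak in some list, which made a count of 0 unlikely beforehand. The 2 Leydig markers summed to 136 in wild-type PA and 16.7 to 41.5 in the others. In bulk RNA, fewer cells of a type and less RNA per cell cannot be told apart, and the part of cell makeup in the peak results was not tested. Counts of Alkbh5 were not analysed here, so the genotype labels were not checked on the targeted gene.

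The number of single-block coding peaks moved in opposite directions with genotype in the 2 fractions. The ratio of KO to WT in PA was 1.12 (1.07 to 1.18). In RO it was 0.955 (0.912 to 0.999). With a false discovery rate under 0.05 the ratio in RO was 1.02 (0.977 to 1.07), so the lower number in knockout RO rested on peaks above that limit. The peaks of several blocks had larger ratios, 2.12 in PA (1.94 to 2.32) and 1.27 in RO (1.16 to 1.4), with intervals that do not meet those of the single-block peaks. Single-block peaks in 3′ untranslated regions stood at 1.36 in PA and 0.909 in RO. The sequence covered by single-block coding peaks was 1077 kb in wild-type PA, 1385 kb in knockout PA, 1195 kb in wild-type RO and 1213 kb in knockout RO. Their host genes numbered 2138, 2485, 2375 and 2357.

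Peak widths followed a step of 30 bases, and in each list 89.6% to 93.4% of them were within 1 base of a multiple of 30. The median width was 241 bp in wild-type PA (quartiles 181 and 361), 270 in knockout PA (181 and 420), 240 in wild-type RO (180 and 360) and 270 in knockout RO (181 and 390). Once the false discovery rate was limited to under 0.05, the medians were 269, 271, 268 and 270 bp. The wider medians of both KO lists therefore did not hold under that limit, although a median moves here mostly in steps of 30 bases. Peaks of 1000 bp or more numbered 42 in wild-type PA, 117 in knockout PA, 54 in wild-type RO and 64 in knockout RO. The limit removed 0% of these wide peaks in each list. The fold of IP over input that the tables give each peak is the authors' own value and is used here only within a list. Wider peaks had the higher folds, with a Spearman correlation across peaks of 0.526 in wild-type PA, 0.625 in knockout PA, 0.620 in wild-type RO and 0.597 in knockout RO. With the input level of the host the correlations of fold were -0.150, -0.0537, -0.0411 and -0.0815. Peaks are not independent replicates, and width and fold come from the same reads. A false discovery rate of 0.05 or more was found for 4.96% of the peaks in wild-type PA, 2.21% in knockout PA, 9.66% in wild-type RO and 3.17% in knockout RO, and outside wild-type RO all of these were under 200 bp wide.

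**Figure D1:**
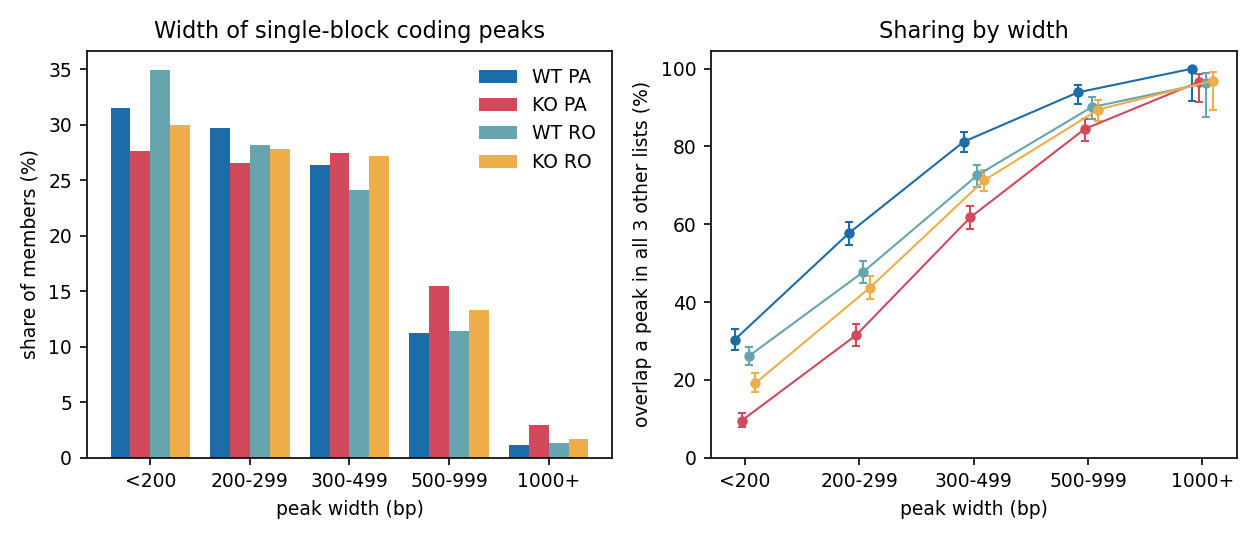
Left, share of single-block coding peaks (%) in 5 classes of width (bp) for the 4 lists. Right, share (%) in each class that overlap a peak in all 3 other lists, with 95% Wilson intervals; in wild-type PA it runs from 30.4% under 200 bp to 100% at 1000 bp or more.

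Peaks in Plec, Mki67 and Lrrc37a were among the widest. In the authors' deposited table for knockout PA the 2 widest were both in Plec, which encodes the cytolinker plectin, on the minus strand of chromosome 15. They ran from 76178574 to 76181872 (3299 bp) and from 76175562 to 76178171 (2610 bp). The wider one had no counterpart in wild-type RO, although Plec had 15753 input counts there. In the same table Mki67, a coat protein of mitotic chromosomes and a marker of dividing cells, had a peak of 2486 bp, and the knockout RO table gave it one of 2336 bp. For wild-type RO the widest lay in Lrrc37a (3176 bp), in Srrm2, which encodes a large scaffold protein of the spliceosome (2574 bp), and in Gm884 (2160 bp). For wild-type PA the widest lay in Epm2aip1, listed with overlapping peaks of 1676 and 1672 bp. The next widest in knockout RO were in Cep250, a centrosomal linker (2279 bp), and Golgb1, a Golgi tether (2068 bp). All these regions except the first in Plec had a peak in all 4 lists.

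Single-block coding peaks recurred more often than peaks in general. In PA, 85.8% of those in WT (84.6% to 86.9%) shared 1 bp or more of exon on the same strand with a KO peak, against 79.7% of all wild-type PA peaks. In the other direction 62.5% of those in knockout PA overlapped a wild-type PA peak, against 56.6% of all. In RO the shares were 66% for WT, against 55.9% of all, and 65.6% for KO, against 58.9% of all. A peak in each of the 3 other lists was found for 59.9% in wild-type PA (all peaks 52.3%), 43.9% in knockout PA (37.8%), 51.7% in wild-type RO (41.2%) and 50.9% in knockout RO (43.5%). The Wilson intervals of the single-block shares lay above the share of all peaks in each case, and all peaks include these peaks. Coding peaks of several blocks were in all 4 lists in 50.5%, 38.5%, 49.2% and 47.9%, in the same order of lists. In RO the intervals of both kinds of coding peak overlapped. For single-block peaks in 3′ untranslated regions the shares were lower, 46.3%, 32.1%, 31.3% and 33.7%. Among pairs of lists the highest share was tied, with 85.8% of knockout RO peaks overlapping a knockout PA peak and 85.8% of wild-type PA peaks overlapping a knockout PA peak. The lists differ in size, and the depth of the IP libraries was not analysed here.

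**Figure D2:**
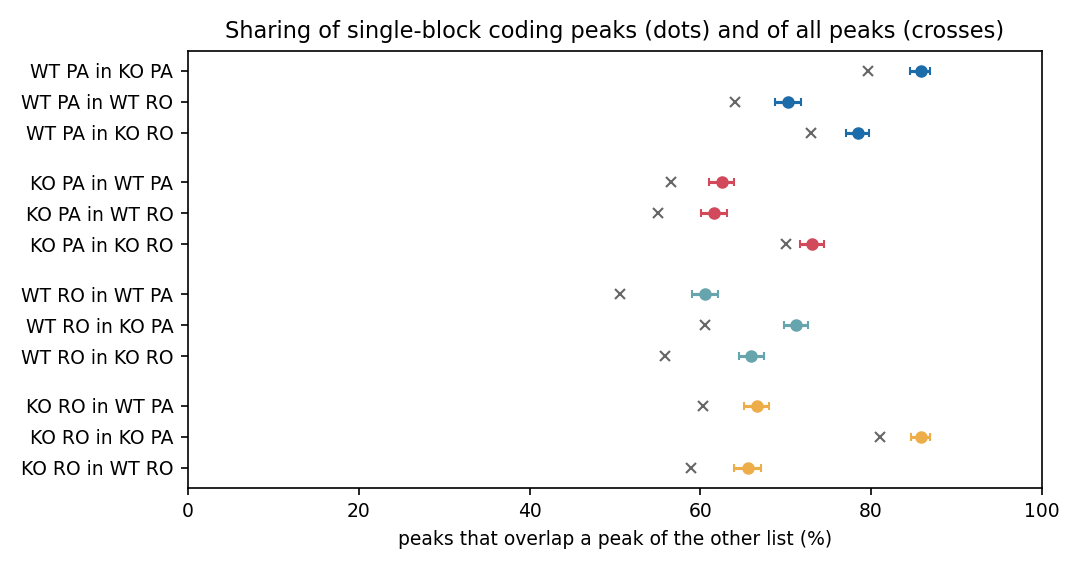
Share (%) of single-block coding peaks of each list that overlap a peak of each other list (dots, with 95% Wilson intervals) and the same share over all peaks of the list (crosses). In all 12 pairs the dot lies to the right of the cross.

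Sharing went with width in every list. Of peaks under 200 bp, 67.0% in wild-type PA, 30.8% in knockout PA, 42.9% in wild-type RO and 42.1% in knockout RO overlapped a peak of the other genotype. Between 300 and 500 bp the shares were 97.7%, 80.8%, 84.5% and 81.0%. Peaks in all 4 lists were a median of 301 bp wide in wild-type PA, 391 in knockout PA, 328 in wild-type RO and 359 in knockout RO, and peaks of a single list 178, 180, 180 and 174. A false discovery rate of at least 0.05 was given to 27.3% of the peaks found in wild-type RO alone and to 27.9% in wild-type PA alone, against 6.76% in knockout PA alone and 16.7% in knockout RO alone.

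Part of the exchange was with peaks of several blocks. Of the wild-type PA peaks that overlapped a knockout PA peak, 457 (15.2%) met no single-block coding peak there, and for 404 of these the counterpart was a coding peak of several blocks. In the reverse direction 97 knockout PA peaks (3.94% of those shared) met only another kind, 60 of them of several blocks. In RO the numbers were 291 (11.3%) from WT to KO and 192 (7.86%) from KO to WT. Aff4, Tcf20 and Vps13d, named below, belong to this group.

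Merged over the lists, the 15069 entries formed 6146 regions in 3655 genes and covered 2228 kb. A peak was present in all 4 lists in 2122 regions (34.5%). Regions with a peak in wild-type RO alone came next (806), ahead of knockout PA alone (540), knockout RO alone (294) and wild-type PA alone (258). Regions with a peak in both KO lists and neither WT list numbered 437, and those with a peak in both WT lists and neither KO list 117. Those of both PA lists alone numbered 163 and of both RO lists alone 107. These combinations were not counted over all peaks. Of all peaks, 30.8% in wild-type RO, 17.4% in knockout PA, 11.8% in knockout RO and 11.4% in wild-type PA were in 1 list alone. The order of the lists was thus the same over all peaks. By gene, 1239 had a single-block coding peak in all 4 lists (33.9%) and 1090 in 1 list alone, 433 of these in wild-type RO.

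**Figure D3:**
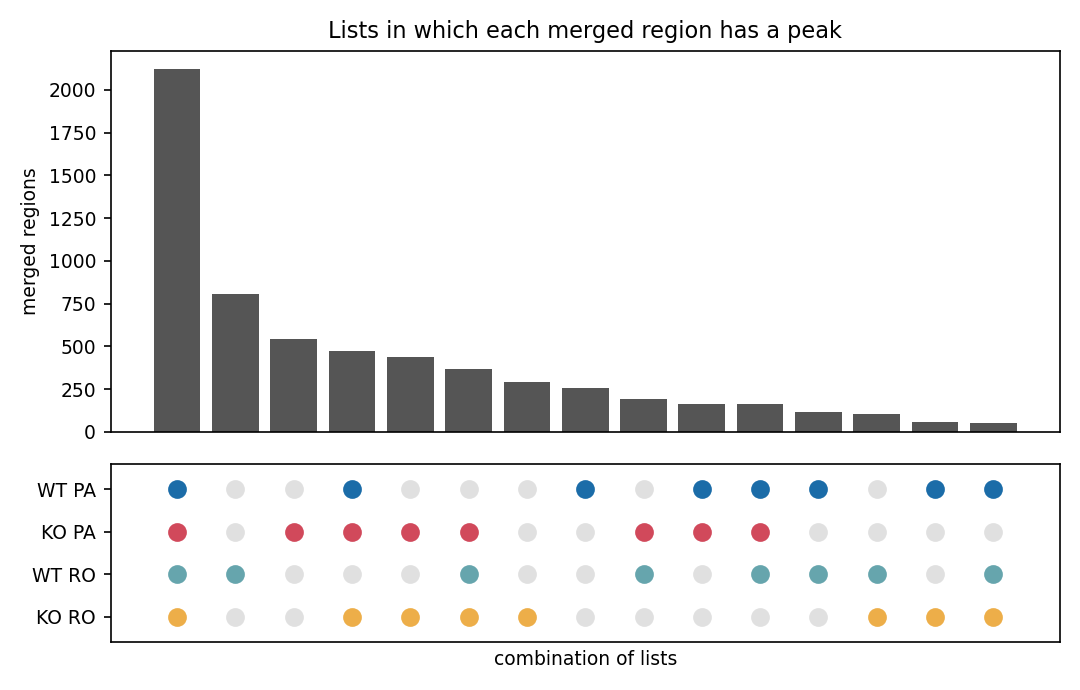
Number of merged regions (bars) for each combination of the lists in which the region has a peak of any kind; filled dots below mark the lists of the combination. The combination of all 4 lists holds 2122 of 6146 regions.

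Where a region had exactly 1 single-block coding peak in each list, widths could be compared within the region. There were 1037 such regions, with a median width of 300 bp in wild-type PA, 360 in knockout PA, 301 in wild-type RO and 330 in knockout RO. The knockout PA peak was wider than the wild-type PA peak in 67.8% of them and narrower in 21.9%, with a median difference of 60 bp. The knockout RO peak was wider than the wild-type RO peak in 49.9% and narrower in 40.8%, with a median difference of 0 bp. These regions are the same places in each list.

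Of the 5 peaks of highest fold in each list, those in Scaf1 and Kbtbd6 were the exceptions that lacked a peak in some list. In the authors' deposited table for wild-type PA they were in Aff4, a scaffold of the super elongation complex (chromosome 11, 53372299 to 53372659, plus strand, fold 369), and Tcf20, a transcriptional coregulator (chromosome 15, 82851526 to 82852486, minus strand, fold 332). Sik3, a kinase that acts on CREB coactivators (fold 323), Bhlhe40, a repressor of the circadian clock (278), and Vps13d, a lipid transfer protein (277), followed in that table. In both KO lists the Aff4 peak met a coding peak of several blocks, as did the Tcf20 peak in knockout PA. In the authors' deposited table for knockout PA the highest were in Dmxl2, a regulator of the vacuolar proton pump (chromosome 9, 54415493 to 54416092, minus strand, fold 475), and Foxn3, a forkhead repressor (chromosome 12, 99388396 to 99388905, minus strand, fold 401). Scaf1, a splicing-related protein (265), Apc, the scaffold that turns over beta-catenin (244), and Frs2, an adaptor of growth factor receptors (232), came after them. Scaf1 had no peak at this place in wild-type RO, where its 1544 input counts were close to the 1535 of wild-type PA.

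The wild-type RO table placed Pih1d3 first, a dynein assembly factor (chromosome 1, 31222838 to 31223755, plus strand, fold 580). Its input counts were 239 in wild-type PA, 129 in knockout PA, 151 in wild-type RO and 181 in knockout RO, and all 4 lists had the peak. In the authors' deposited table for wild-type RO, Setd5 (517), Cic (465), Arhgap29, a GTPase-activating protein (437), and Kbtbd6, a ubiquitin ligase adaptor (436), followed. Kbtbd6 had no peak at this place in knockout RO, where it had 137 input counts against 100 in wild-type RO. In the authors' deposited table for knockout RO the highest were Setd1b, a histone H3 methyltransferase (chromosome 5, 123158536 to 123158926, plus strand, fold 344), Tnrc18 (340) and Ube2o, a large ubiquitin ligase (296). Ccdc71 (284) and Ankib1, a ubiquitin ligase of the RBR type (250), came next.

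Ranked by their lowest within-list percentile of fold, 6 regions stood near the top of all 4 lists. Secisbp2l, a homologue of the factor that reads selenocysteine codons (chromosome 2, 125740095 to 125740783, minus strand), was at percentile 99.4 in wild-type PA, 98.9 in knockout PA, 99.0 in wild-type RO and 99.5 in knockout RO. Frs2 (chromosome 10, 117073740 to 117074788, minus strand) was at 98.6, 99.9, 99.7 and 99.1. Ssh2, a phosphatase that activates cofilin (chromosome 11, 77454766 to 77455546, plus strand), was at 99.9, 99.5, 98.5 and 99.0. Ube2o (chromosome 11, 116539084 to 116539592, minus strand) was at 97.8, 97.9, 99.5 and 99.9. Scaf4, which binds the tail of RNA polymerase II (chromosome 16, 90229166 to 90230063, minus strand), was at 99.1, 97.6, 97.2 and 96.5. The zinc finger gene Zfp597 (chromosome 16, 3865646 to 3866246, minus strand) was at 98.4, 96.0, 98.0 and 99.8. The peak in Frs2 was broad in each list, 1019 bp in wild-type PA, 869 in knockout PA, 870 in wild-type RO and 810 in knockout RO. That in Secisbp2l was 419, 689, 330 and 419 bp wide. The input counts of Secisbp2l were 942, 1015, 573 and 729 and those of Zfp597 330, 651, 500 and 747.

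Peaks found in a single list ranked lower by fold, at a median percentile of 37.6 in wild-type PA, 25.3 in knockout PA, 33.0 in wild-type RO and 31.6 in knockout RO, against 58.8, 70.8, 62.2 and 65.0 for peaks in all 4 lists. The highest in the authors' deposited table for wild-type PA were in the protocadherin gene Pcdhgb1 (fold 64.3), in Irf2bp1, a transcriptional corepressor (56.9), and in Thumpd2, an RNA-binding protein (37.9). The input counts of Irf2bp1 were 71 in wild-type PA, 21 in knockout PA, 131 in wild-type RO and 50 in knockout RO. For knockout PA the authors' deposited table gave Mafg, a small Maf transcription factor (40.2), 2810006K23Rik (39.9) and Rbfa, a mitochondrial ribosome assembly factor (37.6). For wild-type RO it gave Unc13b, a synaptic vesicle priming factor (104), CR974586.4 on an unplaced scaffold (101) and Cpt2, of mitochondrial fatty acid import (99.5). CR974586.4 had 4, 1, 1 and 0 input counts in wild-type PA, knockout PA, wild-type RO and knockout RO, so that few input reads of this gene stand behind the fold. Unc13b had 5238, 4467, 4205 and 4274, and it had 10 regions in wild-type PA and 7 in each other list, the single-list peak included. For knockout RO the authors' deposited table gave the cytokine gene Il16 (61.2), the Wnt receptor gene Fzd6 (40.2) and Tssk1, a kinase of spermatids (39.6).

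Peaks came in clusters within genes. After overlapping entries were merged, 706 of 2138 host genes in wild-type PA had at least 2 separate regions (33.0%, 31.1% to 35%). The shares were 31.0% in knockout PA, 32.3% in wild-type RO and 31.0% in knockout RO, with overlapping intervals. These genes held 58.9%, 56.2%, 58.5% and 56.1% of all regions. The median gap between neighbouring regions of a gene, in genomic distance, was 419 bp in wild-type PA and knockout PA, 389 in wild-type RO and 448 in knockout RO, and 26.7% to 29.2% of gaps were under 200 bp. Of 1308 genes with at least 2 regions in some list, 325 had them in all 4 lists, and of 134 genes with at least 5 regions in some list, 37 had at least 5 in all 4.

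Ahnak, which encodes a giant scaffold protein largely from 1 long exon, had 24 separate regions in wild-type PA, 22 in knockout PA, 18 in wild-type RO and 17 in knockout RO. They spread over 16506 bp and covered 7727, 8263, 5294 and 7001 bp. Its input was 729 CPM in wild-type PA, 861 in knockout PA, 442 in wild-type RO and 852 in knockout RO, lowest in wild-type RO, where the covered length was also lowest. Muc16 had 15 regions in wild-type PA, 9 in knockout PA, 27 in wild-type RO and 12 in knockout RO, covering 3733, 2406, 11238 and 3459 bp. Its input was 337, 215, 720 and 328 CPM, and wild-type RO was highest in both measures. Fsip2, a protein of the fibrous sheath of the sperm tail, had 18 regions in wild-type RO against 8, 8 and 6 in wild-type PA, knockout PA and knockout RO, on an input of 3188, 2165, 2147 and 2782 CPM. Zfp292, a zinc finger gene, varied little, with 12 regions in wild-type PA, 10 in knockout PA, 11 in wild-type RO and 10 in knockout RO. Its covered length was 3280, 4867, 3339 and 4057 bp on an input of 135 to 162 CPM. Fat1, a giant cadherin, had 10, 12, 13 and 13 regions, and Zfhx3, a homeobox transcription factor, 5, 13, 9 and 11. Whether input depth sets these counts was not tested.

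**Figure D4:**
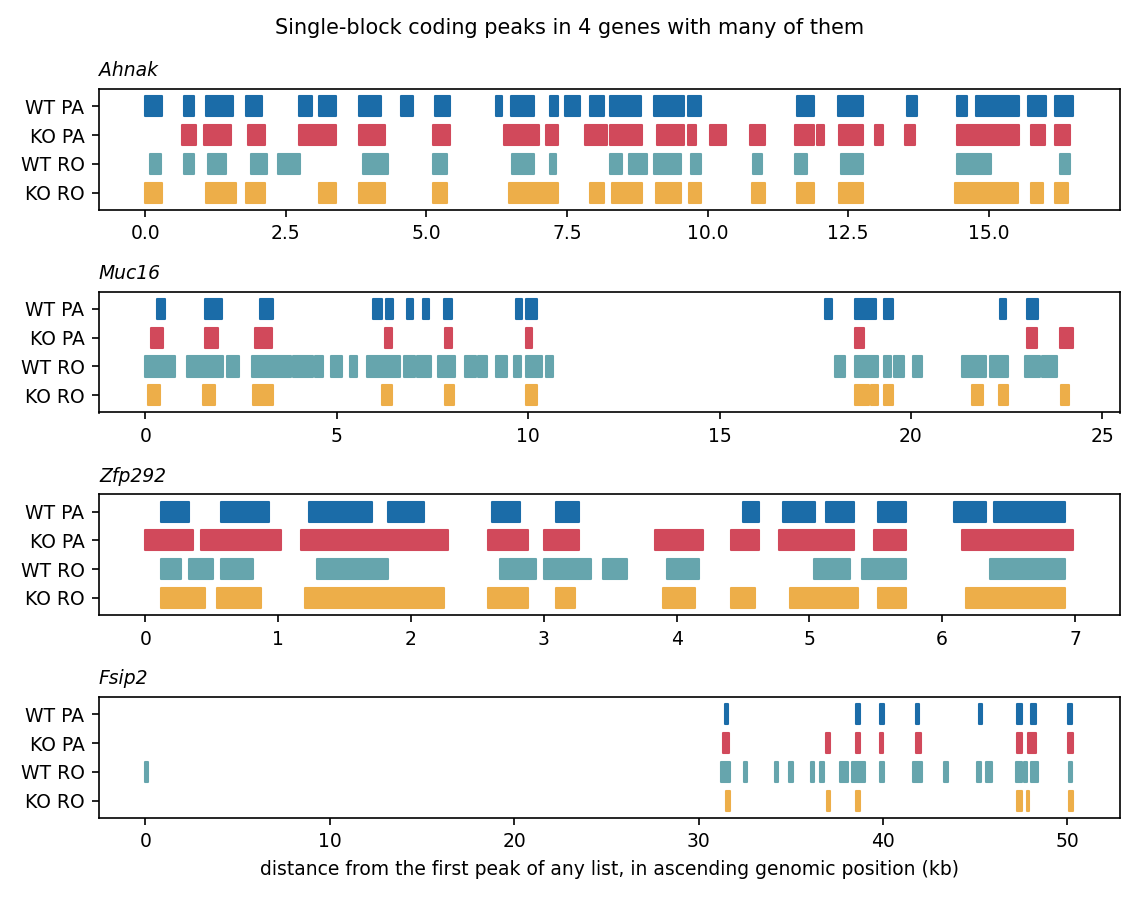
Single-block coding peaks of the 4 lists in Ahnak, Muc16, Zfp292 and Fsip2, drawn to scale as bars by distance (kb) from the first peak of any list, in ascending genomic position. Ahnak and Zfp292 carry peaks at similar places in every list, whereas Muc16 and Fsip2 have most regions, 27 and 18, in wild-type RO.

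Among the 37 genes with at least 5 regions in all 4 lists were the histone H3 methyltransferases Kmt2a (9 regions in wild-type PA, 9 in knockout PA, 8 in wild-type RO and 9 in knockout RO), Kmt2c (8, 8, 11 and 7), Kmt2d (7, 9, 8 and 8) and Setd2 (7, 5, 6 and 5). The cytoskeletal genes among them were Macf1 (9, 10, 11 and 9), Dst (5, 8, 6 and 9), Plec (9, 7, 5 and 9) and Map1b (10, 6, 8 and 7). Tex15, a germ cell factor of meiotic recombination and of retrotransposon silencing, had 9, 9, 9 and 5 regions. Alms1, a protein of centrioles and cilia, had 9, 6, 9 and 7. Ttn, the muscle protein titin, had 5, 12, 5 and 6.

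Genes were then grouped by lists that had been drawn up with earlier results of these data known, and the share of a list's genes that carried a single-block coding peak was set beside that of all protein-coding genes with a peak of any kind. Of those 7214 genes, 29.6% carried one in wild-type PA, 34.4% in knockout PA, 32.9% in wild-type RO and 32.6% in knockout RO, and 17.1% carried one in all 4 lists. The counts below describe the lists and are no test. The names of the lists do not hold for every gene counted in them. Examples are Usp6nl among the deubiquitinases and Ccdc36 among the centrosome, cilium and axoneme genes. BTB and Kelch genes, which include adaptors of cullin ubiquitin ligases and BTB zinc fingers, had one in 40, 41, 39 and 40 of 66 genes and in all 4 lists in 31 (47.0%). Klhl11 stood at the 93.5 percentile of fold or higher in each list (98.7 in wild-type PA, 93.5 in knockout PA, 99.1 in wild-type RO, 99.3 in knockout RO), in a peak as wide as 1615 bp in wild-type RO. Zbtb18, a transcriptional repressor, was at 96.0, 99.9, 98.6 and 98.0.

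The list named Krueppel-type zinc finger genes also holds genes that are not of that type, such as Zfp36l1 and Zfp36l2. It was the largest list, with 267 genes. Of these, 120 carried such a peak in wild-type PA, 130 in knockout PA, 148 in wild-type RO and 116 in knockout RO. In all 4 lists 77 did (28.8%). Within it wild-type RO had the most genes, and 59.5% of the wild-type RO peaks in these genes overlapped a knockout RO peak, against 66% of all single-block coding peaks of wild-type RO. Histone methyltransferases and demethylases had 25, 28, 28 and 28 of 47 genes, and 19 (40.4%) in all 4 lists. Their wild-type PA peaks overlapped a knockout PA peak in 97.6% and were a median of 330 bp wide. Chromatin remodellers and readers had 34, 33, 32 and 31 of 69, with 25 (36.2%) in all 4, among them the acetyltransferase gene Ep300 and Phf3, a regulator of RNA polymerase II. Among DNA methylation genes the oxidases Tet2 and Tet3 and the binding protein Mbd5 had peaks in all 4 lists, 3 of 9 genes.

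Genes of the m6A pathway carried the mark's peaks in their own coding sequence. Of 13 such genes with a peak, 8 had a single-block coding peak in wild-type PA, 6 in knockout PA, 7 in wild-type RO and 8 in knockout RO, and 5 had one in all 4 lists. These were Cbll1, Rbm15b and Virma of the writer complex and the readers Ythdf1 and Ythdf2. Rbm15b, which recruits the writer to RNA, was at percentile 95.2 in wild-type PA, 99.1 in knockout PA, 88.4 in wild-type RO and 96.4 in knockout RO. Zc3h13, another writer subunit, had 3 regions in wild-type PA, none in knockout PA, 3 in wild-type RO and 1 in knockout RO. Fto, the other known m6A demethylase gene, had 1 region in every list but knockout PA.

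Lists tied to germ cell function were small. Meiotic recombination, cohesin and repair genes had 13, 12, 12 and 12 of 24, and 11 (45.8%) in all 4, among them Brca1, Brca2, Mlh3 and Ankrd31, which is needed for recombination on the sex chromosomes. Brca2 had 3 regions in wild-type PA, 9 in knockout PA, 7 in wild-type RO and 6 in knockout RO. In the piRNA list Tdrd6, a scaffold of the chromatoid body, had 6, 6, 6 and 4 regions on 22648, 6270, 20795 and 7366 input counts, with the same number of regions in wild-type PA and knockout PA on a lower KO input. Tdrd3 was at percentile 97.4, 96.2, 93.6 and 95.4. Spermatid nuclear and acrosome genes had 3, 6, 6 and 5 of 12, with Spam1, a sperm hyaluronidase, and Tssk1 in all 4. Sperm tail genes had 3, 5, 7 and 4 of 13. The median fold percentile of their peaks was 6.69, 6.02, 9.46 and 2.47, the bottom of each list, and most of their regions belonged to Fsip2, with 8, 8, 18 and 6. Pgk2, a glycolytic enzyme of sperm and also in that list, was by contrast at percentile 80.5, 79.9, 99.0 and 75.1.

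Centrosome, cilium and axoneme genes had 51, 49, 57 and 57 of 155 (32.9%, 31.6%, 36.8% and 36.8%), and ubiquitin ligases and deubiquitinases 62, 64, 58 and 73 of 156 (39.7%, 41.0%, 37.2% and 46.8%). Small GTPase regulators had 37, 39, 34 and 40 of 78 (47.4%, 50%, 43.6% and 51.3%), and 27 (34.6%) in all 4 lists. Kinesin and myosin motors had 12, 16, 12 and 15 of 33 (36.4%, 48.5%, 36.4% and 45.5%). Genes of microRNA silencing and mRNA decay had 7, 8, 7 and 9 of 22 (31.8%, 36.4%, 31.8% and 40.9%). Within the last list Tnrc6a and Tnrc6b, scaffolds of microRNA silencing, and the decay factor genes Smg5 and Smg6 had peaks in every list. Kif14, a kinesin of cell division, had its peak at percentile 83.4 in wild-type PA, 99.8 in knockout PA, 51.5 in wild-type RO and 79.1 in knockout RO.

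**Figure D5:**
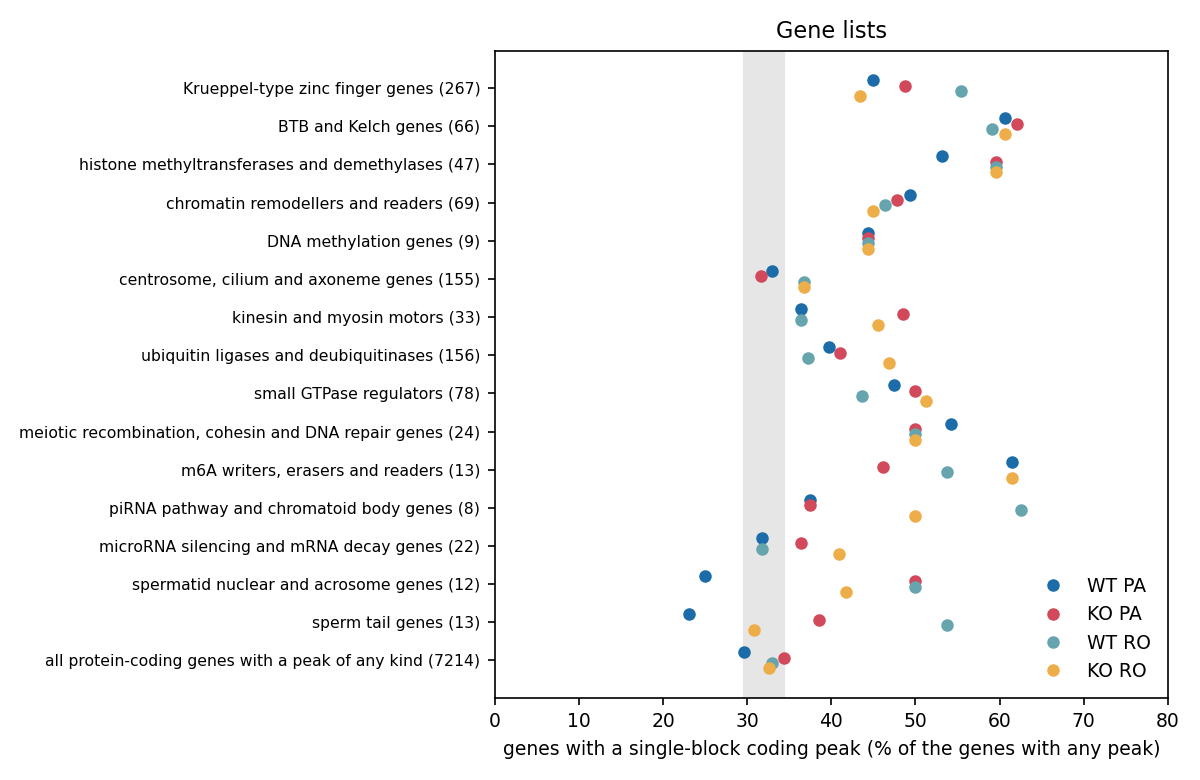
Share (%) of the genes of each list that carry a single-block coding peak, among its genes with a peak of any kind (number in brackets), for the 4 peak lists. The grey band spans the shares of all protein-coding genes with a peak, 29.6% to 34.4%.

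Host genes were mostly well represented in the input. Their median level was 47.3 CPM in wild-type PA, 41.8 in knockout PA, 42.3 in wild-type RO and 41.4 in knockout RO, and 83.0% to 86.8% had at least 10 CPM. The share of genes with a single-block coding peak was 0.870% between 1 and 3 CPM in wild-type PA and 28.7% from 100 CPM upward, and 1.01% and 31.6% in knockout PA. In wild-type RO it was 1.47% and 29.6% and in knockout RO 1.01% and 30%. The share was higher at each higher level of input. This held as well for genes with a peak of any kind. Between the same levels their share went from 3.52% to 53.6% in wild-type PA and from 4.18% to 67.0% in knockout PA. In wild-type RO it went from 5.81% to 58.3%, and in knockout RO from 4.07% to 60.4%.

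Input counts that differed between genotypes by 2-fold were less frequent among hosts than among all genes. Where either library reached 10 CPM, 255 of 2590 PA hosts were at least 2-fold higher in KO (9.85%), against 13.3% of all genes, and 221 at least 2-fold lower (8.53%), against 13.0%. In RO 280 of 2636 hosts were higher (10.6%, all genes 11.8%) and 252 lower (9.56%, all genes 12.9%). Among genes with a peak of any kind 9.78% were higher and 11.6% lower in PA, and 9.77% and 12.2% in RO, so that hosts were not below these in the share higher. Hosts with a peak in knockout PA but not in wild-type PA had a median log2 ratio of input, KO over WT, of 0.13, and those with a peak in wild-type PA but not knockout PA one of -0.12. In RO the medians were 0.06 and -0.16, and over all genes -0.04 in PA and -0.05 in RO. Of the hosts in knockout PA alone 17.0% were at least 2-fold higher and 8.22% lower, and of those in wild-type PA alone 5.06% and 12.1%. Genes with a peak in 1 genotype therefore tended to have more input in that genotype. By contrast Cic, with 3107 counts in wild-type PA, 1048 in knockout PA, 3145 in wild-type RO and 975 in knockout RO, and Setd1b, with 1723, 639, 1889 and 743, kept their peak in all 4 lists although their input was lower in both KO libraries.

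Along the gene, introns included, the peaks lay toward the 3′ side. The median position of their middle was 69.8% of the gene length from the 5′ end in wild-type PA, 71.0% in knockout PA, 69.0% in wild-type RO and 70.2% in knockout RO, against 95.4% to 95.8% for single-block peaks in 3′ untranslated regions. Between 20.8% and 23.3% lay in the last 10% of the gene and 6.93% to 7.55% in the first 10%. Coding peaks of several blocks lay at similar places, with medians of 67.8%, 65.7%, 65.7% and 69.4% in the same order of lists. Between 17.3% and 20.6% of them lay in the last 10%. Where coding sequence in general lies along the gene was not calculated, so these positions do not show a lean of the mark within coding sequence. The X chromosome is silenced in pachytene cells. It held 2.37% of the peaks in wild-type PA, 2.51% in knockout PA, 2.1% in wild-type RO and 2.87% in knockout RO, with overlapping intervals. Of all peaks, whatever their class, the chromosome held 1.97%, 2.39%, 1.59% and 2.62% in the same order. Of 121 X-linked hosts 24 had a peak in all 4 lists, among them the chromatin remodeller gene Atrx and the ubiquitin pathway genes Rlim, Usp9x and Usp26. Of the X-linked hosts 13 had one in both KO lists and neither WT list, and 0 the reverse. Over all 3655 hosts 211 (5.77%) were in both KO lists alone and 95 (2.60%) in both WT lists alone, so the first pattern was also the more common one in general. Usp26 had 93 input counts in wild-type PA, 555 in knockout PA, 122 in wild-type RO and 901 in knockout RO. Mitochondrial genes held 5 peaks in wild-type PA, 2 in knockout PA, 11 in wild-type RO and 1 in knockout RO. Peaks of any class in these genes numbered 7, 2, 12 and 1. The gene mt-Nd2 was the one that all lists shared.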

How the data were processed

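Values came from 4 peak lists and a table of raw gene counts of the 4 input libraries, all deposited by the authors. The submitters' processing notes name cutadapt 2.5, HISAT2 2.1.0, HOMER 4.10.4 and the build mm10, without roles; the peak caller and counting tool are not given in the sources used here. The file headers give, for every peak, the authors' fold (ratio of IP over input), a log10 p-value and log10 false discovery rate, which reach minus infinity and were treated as a score, a class and a gene; a further deposited column holds the p-value. Lists were assigned by their names alone.

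Peaks were compared by exon blocks on the same strand, at least 1 bp. The code was checked by exhaustive comparison on simulated intervals and against bedtools on the peak lists. Counts were scaled by TMM (edgeR 4.0.16, R 4.3.3) with a prior count of 2 and a minimum of 10 CPM in 1 library of the pair. On libraries drawn with 200 changed genes all 200 were recovered in both comparisons (53465 genes). The drawn changes were far larger than 2-fold, so this checks the code and not the power to find small changes. DESeq2 1.42.0 gave alternative size factors. All else ran in Python 3.11.15 (pandas 2.3.3, numpy 2.4.6, scipy 1.17.1, matplotlib 3.10.9). Shares have Wilson and ratios exact 95% intervals. No genome was used: the motif count, planned over all peaks, was limited to RefSeq windows of 300 bases.

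The peaks and gene lists were chosen with earlier results of these data known. Named per list were the 5 highest folds, the 3 highest found in 1 list, the 3 genes with most regions and the 3 widest peaks; across lists, 6 shared regions and listed genes present in all 4. Of these, 1 of the widest peaks is not reported here. The 37 clustered genes, the sequences and the X-linked genes, as well as Zc3h13 and Fto, were chosen after their values were seen. Alternatives were a false discovery rate limit, a fold of 5, merging, a reciprocal overlap of 50%, other scalings, filters and a prior of 0.5.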

Additional observations from a re-analysis of the deposited data

Results flagged for a closer look

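Several quantities differed between KO and WT in opposite directions in the 2 cell fractions, each with 1 list per group. These differences between the fractions were not tested. The number of single-block coding peaks was 432 higher in KO than in WT in PA, and the difference was -177 in RO. The ratio of KO to WT over all peaks was 1.32 in PA and 0.939 in RO, also in opposite directions. With a false discovery rate under 0.05 the ratio of single-block coding peaks in RO was 1.02, so the lower number in knockout RO did not hold. Genes with a single-block coding peak differed by 347 in PA and by -18 in RO, where the ratio of KO to WT was 0.992 (0.937 to 1.05). The share of single-block coding peaks among all peaks differed by -7 percentage points in PA and by 0.7 in RO. In RO the intervals of this share overlapped (40.4% to 42.4% in WT, 41.1% to 43.1% in KO). For genes and for this share, the RO difference was therefore within counting error. The share of single-block coding peaks found in a single list differed by 6.43 points in PA (7.47% in WT, 13.9% in KO). In RO it differed by -13.34 points (21.4% in WT, 8.06% in KO). Of all peaks, 11.4% in wild-type PA, 17.4% in knockout PA, 30.8% in wild-type RO and 11.8% in knockout RO were in a single list. The directions were thus those of the whole lists.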

How the results depend on the processing

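Of 71 alternative values, 52 stayed within the interval of the main value or within 1.5 times the main count, 18 moved outside and 1 changed direction. With a false discovery rate under 0.05 the KO to WT ratio in RO turned to 1.02, since the limit removes 377 peaks from the wild-type and 118 from the knockout list. The medians of width became 269 bp in wild-type PA and 268 in wild-type RO, beside 271 in knockout PA and 270 in knockout RO. This ends the difference of about 30 bp in the medians. Peaks of 1000 bp or more all stayed, 42 in wild-type PA and 117 in knockout PA. The comparison of widths within regions was not repeated under the limit. The shares overlapping the other genotype became 87.7% in wild-type PA and 69.8% in wild-type RO, and the share in all 4 lists 55.0% in wild-type RO. A fold of at least 5 gave a ratio of 0.898 in RO. A reciprocal overlap of 50% lowered the share overlapping the other genotype to 60.6% in wild-type PA, 49.6% in knockout PA, 44.5% in wild-type RO and 45.7% in knockout RO, and the share in all 4 lists to 31.7%, 26.1%, 26.3% and 29.4%. Counting only single-block coding peaks of the other list gave 72.7%, 60.1%, 58.6% and 60.4%. Counts of peaks, shares of clustered genes and numbers of hosts past 2-fold stayed within those limits under the alternatives run for them. No paired analysis was possible because the labels give no replicate numbers, and no result here comes from a test; a fit of the input counts with genotype and fraction as terms was not run. Depth of the IP libraries was not analysed here, so what it limits in number, width and sharing of peaks is not known.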
